A study of Mus musculus with 6 samples.

Results

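The genes described here are the matricellular genes Ccn1, Ccn2 and Thbs1 and 7 genes of the Hippo-YAP pathway, Yap1, Wwtr1, Tead1, Tead2, Lats1, Lats2 and Amotl2. They are 10 of the 38293 rows of the count table, matched by gene symbol, and all 10 passed the low-count filter that left 14642 genes. They were chosen by name with the NMDA and control values of these same libraries known, Ccn1 being among the genes with large differences. The comparison of the 10 genes between NMDA and control is therefore a description: the adjusted p-values printed for them give their place in a fit over all genes and support nothing further.

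RNA was sequenced from primary cortical neuron cultures of wild-type (labelled WT) Swiss-Webster mouse embryos at embryonic day 16, grown for 13 days in vitro. Control cultures (3 libraries) carry the treatment label None. NMDA cultures (3 libraries) were exposed to 50 µM NMDA, an agonist of one class of ionotropic glutamate receptors, for 10 minutes, and were collected after a further 50 minutes without the drug. Libraries held 15417234 to 19183999 counts. The labels do not say whether libraries of a group came from separate litters or dissections, and their protocol text names fewer biological replicates than the 3 libraries listed per group. The spread that the p-values rest on may therefore be partly technical. That text also mentions etoposide, with which no library used here is labelled.

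CCN1 (formerly CYR61), CCN2 (formerly CTGF) and thrombospondin-1, the product of Thbs1, are secreted matricellular proteins. They bind integrins and other cell surface receptors and signal to cells rather than build the matrix. In the Hippo pathway the kinases LATS1 and LATS2 phosphorylate the coactivators YAP (Yap1) and TAZ (Wwtr1) and keep them out of the nucleus. Unphosphorylated YAP and TAZ bind TEAD factors and switch on target genes, among which Ccn1, Ccn2, Amotl2 and Lats2 are widely used as readouts, and the last 2 of these act back on the pathway as inhibitors. In brain, YAP and TAZ are known mainly from neural progenitors, astrocytes and cells of vessels and meninges, and are low in most neurons. Ccn1 is also known as an immediate early gene that serum, growth factors and neuronal activity induce.

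On GRCm38, in the GENCODE M21 annotation, the CCN genes are compact protein-coding genes. Ccn1 (ENSMUSG00000028195) lies on chromosome 3 from 145646976 to 145649981 and Ccn2 (ENSMUSG00000019997) on chromosome 10 from 24595442 to 24598683, so that their gene bodies span 3006 and 3242 bp. Thbs1 (ENSMUSG00000040152) spans 15258 bp on chromosome 2 from 118111876 to 118127133. The pathway genes, also protein-coding, have bodies of 16747 bp (Amotl2) to 227490 bp (Tead1). Wwtr1 lies on chromosome 3 from 57455649 to 57575910, Yap1 on chromosome 9 from 7931999 to 8004596, Amotl2 on chromosome 9 from 102716672 to 102733418, Tead1 on chromosome 7 from 112679318 to 112906807, Tead2 on chromosome 7 from 45215753 to 45233644, Lats1 on chromosome 10 from 7681214 to 7716460 and Lats2 on chromosome 14 from 57689662 to 57758388. Exons of 2 of the 10 genes overlap much other annotation. For Ccn2, 23.2% of the exon bases are shared with the antisense transcript Gm15270, which had at most 2 counts in a library. For Lats2, 42.4% are shared with Gm49361 on the same strand, which has no row in the count table. How reads on those shared bases were assigned is not known, which bears on the CPM and the level per kb of Lats2.

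RefSeq promoter windows on GRCm38.p6 (250 bases before to 50 after the annotated start, reference strain) were matched by symbol for 7 of the 10 genes, 9 windows in all; Ccn2, Thbs1 and Tead1 were not matched. Those of Ccn1, Amotl2, Lats2 and Tead2 are shown because these are the genes with a window whose NMDA libraries all stood above all controls; of the 2 windows of Lats2 the one with a match is printed. Each is printed 5′ to 3′ on the gene's strand up to 25 bases after the start. Capitals mark matches, on either strand, to the TEAD motif GGAATG and to TGACGT, a longer form of the cyclic AMP response half-site TGACG.
Ccn1, chr3:145649961-145650235, minus strand: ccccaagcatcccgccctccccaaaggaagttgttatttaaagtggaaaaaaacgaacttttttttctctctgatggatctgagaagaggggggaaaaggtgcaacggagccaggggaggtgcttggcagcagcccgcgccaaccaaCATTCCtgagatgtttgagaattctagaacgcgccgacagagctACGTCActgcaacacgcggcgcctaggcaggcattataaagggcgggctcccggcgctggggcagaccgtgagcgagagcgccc
Amotl2, chr9:102717554-102717828, plus strand: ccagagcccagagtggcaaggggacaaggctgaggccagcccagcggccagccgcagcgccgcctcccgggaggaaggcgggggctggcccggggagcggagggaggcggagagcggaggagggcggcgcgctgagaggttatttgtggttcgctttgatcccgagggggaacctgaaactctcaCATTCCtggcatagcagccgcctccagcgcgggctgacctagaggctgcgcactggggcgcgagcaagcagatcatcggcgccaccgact
Lats2, chr14:57746099-57746373, minus strand: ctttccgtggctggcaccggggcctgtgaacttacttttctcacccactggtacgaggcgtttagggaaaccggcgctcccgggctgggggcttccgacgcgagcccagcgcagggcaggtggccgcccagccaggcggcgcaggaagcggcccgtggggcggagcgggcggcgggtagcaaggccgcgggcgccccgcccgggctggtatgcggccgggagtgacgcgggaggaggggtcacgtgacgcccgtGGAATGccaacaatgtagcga
Tead2, chr7:45215542-45215816, plus strand: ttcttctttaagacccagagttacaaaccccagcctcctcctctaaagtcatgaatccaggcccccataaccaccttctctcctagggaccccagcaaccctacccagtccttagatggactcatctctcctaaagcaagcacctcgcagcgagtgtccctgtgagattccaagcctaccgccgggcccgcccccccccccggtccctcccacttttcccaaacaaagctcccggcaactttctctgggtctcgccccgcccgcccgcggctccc

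The TEAD motif begins 103 bases before the start in Ccn1, 65 before it in Amotl2 and 4 bases after 1 of the 2 annotated starts of Lats2. None of the motifs was found at the other start of Lats2 (chr14:57734394-57734668), in Tead2 or in Lats1. It was also found in the windows of Yap1 (141 bases before the start) and Wwtr1 (136 and 170 bases before its 2 annotated starts), thus in 5 of the 7 genes with a window, against 14.6% of 32544 distinct promoter windows of the same length. The longer half-site form TGACGT was found in 1 of the 7, Ccn1, 59 bases before the start, against 7.55% of all windows. The shorter TGACG was not searched, and the printed Lats2 window holds it. The AP-1 motif TGANTCA (7.79% of all windows) and the CArG box bound by serum response factor (1.64%) were found in none of the 7. No motif searched overlapped another in these windows. A match describes the letters of the window and is no evidence of binding.

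**Figure D1:**
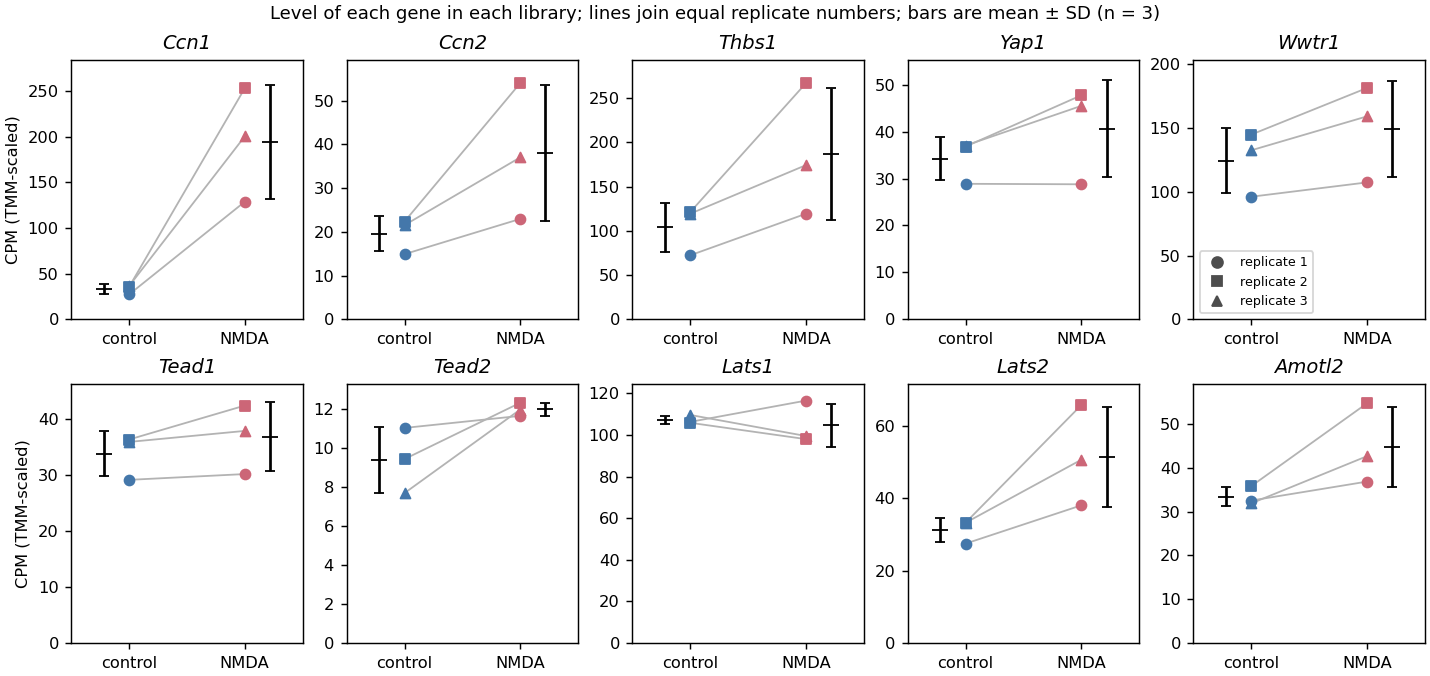
CPM of each of the 10 genes in the 3 control (blue) and 3 NMDA (red) libraries, with grey lines joining equal replicate numbers and bars giving mean ± SD (n = 3), each axis starting at 0. The NMDA points of Ccn1, Ccn2, Lats2, Amotl2 and Tead2 all lie above the control points; those of the other 5 genes overlap.

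Ccn1 differed most. In CPM (counts scaled to a common library size), control libraries had 27.4, 35.7 and 36.6 and NMDA libraries had 129, 253 and 200. Here and below 3 values stand in the order of replicate number. The lowest NMDA library thus stood far above the highest control. The mean went from 33.2 ± 5.10 to 194 ± 62.4 CPM (SD, n = 3 per group), a 5.85-fold difference (log2 2.55 ± 0.25 SE). In the edgeR quasi-likelihood fit with Benjamini-Hochberg adjustment over all genes its adjusted p was 0.0054, the 20th smallest p. The value was 0.067 without control replicate 3 and 0.070 with no low-count filter, so the call was lost in both.

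Ccn1 was the 1 gene of the 10 past the threshold of 0.05 in that fit, in which 0.376% of the 14642 genes were called higher and 0.0546% lower. Libraries of the same replicate number deviated together from their group means, so the number was also used as a block (the fit within pairs). Within pairs 6 of the 10 were higher and none was lower, beside 5.65% higher and 8.35% lower among all genes. The NMDA libraries all stood above the controls for 5 of the 10 and all below for none, beside 8.18% and 11.1% of all tested genes. Because these values chose the genes, nothing is read from those counts.

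Ccn2, the other CCN gene, measured 14.9, 22.3 and 21.5 CPM without and 22.9, 53.9 and 37.0 CPM with NMDA. NMDA replicate 1 lay barely above the highest control, and NMDA replicate 2 was far above all others. The log2 difference was 0.96 ± 0.30 (SE; edgeR adjusted p = 0.24), with a 95% interval of 0.27 to 1.65. It was 0.62 without NMDA replicate 2, and DESeq2 called the gene (adjusted p = 0.015). Within pairs it was 0.91 ± 0.11 (edgeR adjusted p = 2.75e-05), from single pair values of 0.62, 1.27 and 0.78.

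The ratio of Ccn1 to Ccn2 CPM was 1.71 ± 0.120 without and 5.24 ± 0.486 with NMDA (SD, n = 3), with no overlap between the groups. Of the other 4 CCN genes Ccn3 (formerly Nov), a growth-inhibiting member of the family, had the highest CPM, with a mean of 185 ± 42.7 CPM without and 214 ± 39.8 CPM with NMDA (SD, n = 3). Ccn3, Ccn4 and Ccn5 differed by log2 0.21, 0.17 and 0.18 and none passed in either fit; Ccn6 had at most 12 counts and was not tested.

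Thbs1, whose product astrocytes release and which is known to promote synapse formation, measured 72.4, 121 and 119 CPM without and 119, 267 and 174 CPM with NMDA. The groups overlapped, since NMDA replicate 1 fell just under 2 of the controls. In each pair, however, the NMDA library was the higher one, by log2 0.72, 1.14 and 0.55. The difference was 0.84 ± 0.31 (SE; edgeR adjusted p = 0.31) and within pairs 0.80 ± 0.10 (edgeR adjusted p = 4.27e-05). Without NMDA replicate 2 the unblocked difference was 0.49.

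Thbs1 and Ccn2 had nearly the same profile over the 6 libraries. The likeness measure was the root mean square difference of log2 CPM after centring each gene on its mean, a description over 6 libraries of 2 groups. Among 12617 genes compared, Thbs1 was the nearest to Ccn2 and Ccn2 the nearest to Thbs1, at 0.085. For both, Vgll3, a cofactor of TEAD factors, and Cnn2, an actin-binding calponin, came next (0.12 to 0.14). Cnn2 measured 11.1, 14.9 and 15.6 CPM without and 16.4, 33.1 and 21.2 CPM with NMDA, with the same low replicate 1 and high NMDA replicate 2.

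The genes nearest to Ccn1 were the activity-regulated genes Cebpd (0.25), Arc (0.26) and Nr4a2 (0.27), at a larger distance. Nr4a2 measured 10.7, 12.1 and 11.8 CPM without and 73.4, 96.4 and 82.2 CPM with NMDA, with less spread than Ccn1. Plod2 (0.067), a collagen-modifying enzyme, Pole2 (0.075) and Cdk2 (0.076) were nearest to Amotl2, whose profile is flatter.

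Among the kinases the paralogs Lats1 and Lats2 stood apart. Lats2 measured 27.5, 33.2 and 33.2 CPM without and 38.0, 65.7 and 50.6 CPM with NMDA, with no overlap. Its log2 difference was 0.72 ± 0.18 (SE; edgeR adjusted p = 0.17) and within pairs 0.69 ± 0.09 (edgeR adjusted p = 4.85e-05), and DESeq2 without the block called it (adjusted p = 0.011). Lats1 measured 106, 106 and 110 CPM without and 116, 98.0 and 99.5 CPM with NMDA, higher than its control in pair 1 and lower in pairs 2 and 3. Its log2 difference was -0.04 ± 0.09 (SE), with a 95% interval of -0.24 to 0.16, and did not pass in either fit (edgeR adjusted p = 0.89 without the block and 0.77 with it).

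The ratio of Lats2 to Lats1 CPM was 0.258, 0.314 and 0.303 in control and 0.326, 0.671 and 0.509 in NMDA replicates 1, 2 and 3. All 3 NMDA ratios were above the controls, by little in replicate 1.

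Amotl2 encodes an angiomotin, a junction protein that binds YAP and activates LATS kinases. It measured 32.6, 35.9 and 31.9 CPM without and 36.9, 54.8 and 42.7 CPM with NMDA, with NMDA replicate 1 only slightly above the highest control. The log2 difference was 0.42 ± 0.14 (SE; edgeR adjusted p = 0.25) and within pairs 0.41 ± 0.09 (edgeR adjusted p = 0.0036), or 0.30 with an adjusted p of 0.11 without both libraries of replicate 2. Without NMDA replicate 2 the unblocked difference was 0.25.

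The estimated differences of the coactivators were smaller. Wwtr1, which encodes TAZ, measured 96.2, 145 and 133 CPM without and 107, 181 and 159 CPM with NMDA. The groups overlapped and each NMDA library exceeded its own pair's control. The log2 difference was 0.26 ± 0.21 (SE; edgeR adjusted p = 0.62) and within pairs 0.25 ± 0.07 (edgeR adjusted p = 0.025). Without both libraries of replicate 2 or of replicate 3 that adjusted p was 0.31 or 0.060. The unblocked difference ranged from 0.10 without NMDA replicate 2 to 0.46 without NMDA replicate 1. Yap1 measured 28.9, 36.8 and 37.0 CPM without and 28.8, 47.7 and 45.5 CPM with NMDA. Replicates 2 and 3 were higher with NMDA and replicate 1 was level. Its log2 difference of 0.25 ± 0.19 (SE), with a 95% interval of -0.17 to 0.67, did not pass, nor did that within pairs (0.23 ± 0.09, edgeR adjusted p = 0.081). It ranged from 0.12 without NMDA replicate 2 to 0.46 without NMDA replicate 1.

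Wwtr1 and Yap1 varied together over the libraries. The ratio of Wwtr1 to Yap1 CPM was 3.62 ± 0.305 without and 3.68 ± 0.157 with NMDA (SD, n = 3), and of the 45 pairs among the 10 genes these 2 had the most alike profiles (0.080).

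The TEAD factors carry YAP and TAZ to DNA. Tead1 measured 29.1, 36.4 and 35.9 CPM without and 30.2, 42.4 and 37.9 CPM with NMDA. The groups overlapped, with a log2 difference of 0.13 ± 0.14 (SE) and a 95% interval of -0.19 to 0.44. That difference was 0.01 without NMDA replicate 2 and 0.26 without NMDA replicate 1. Tead2, known from neural progenitors, measured 11.1, 9.45 and 7.70 CPM without and from 11.7 (replicate 1) to 12.3 (replicate 2) CPM with NMDA. The NMDA libraries lay close together above the spread-out controls. Its log2 difference was 0.35 ± 0.16 (SE; edgeR adjusted p = 0.36) and within pairs 0.37 ± 0.13 (edgeR adjusted p = 0.059), with an unblocked value of 0.23 without control replicate 3. Tead1 also passed in neither fit (edgeR adjusted p = 0.73 and 0.36).

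**Figure D2:**
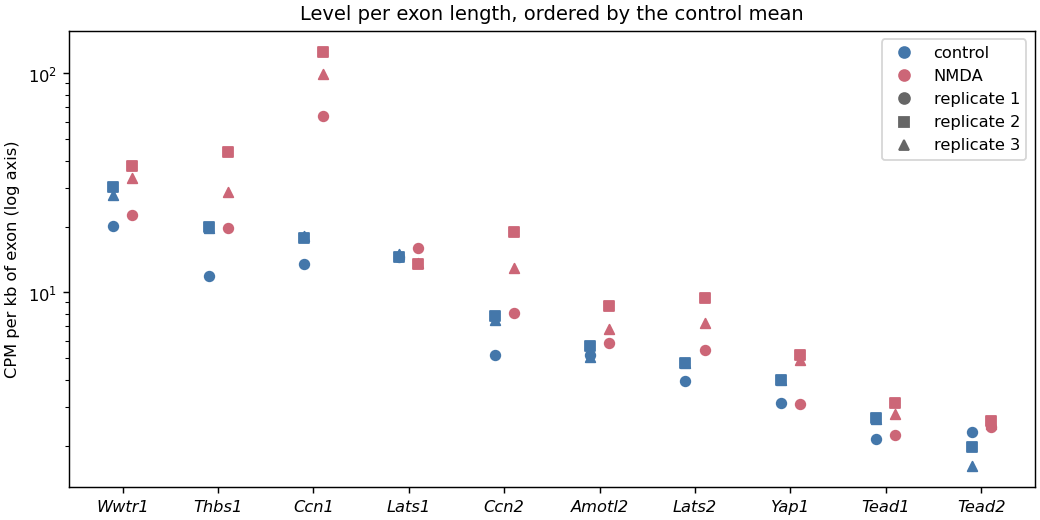
CPM per kb of merged exon (log axis) of the 10 genes in each library, control in blue and NMDA in red, ordered by the control mean. Ccn1 goes from the third place in control, at 16.5, to the first in NMDA libraries, at 96.2; Tead1 and Tead2 are the lowest in both.

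Levels between genes were compared per kb of exon. In control libraries the order of the mean CPM per kb was Wwtr1 (26.1 ± 5.30 SD), Thbs1 (17.2 ± 4.56), Ccn1 (16.5 ± 2.52), Lats1 (14.7 ± 0.283), Ccn2 (6.85 ± 1.43), Amotl2 (5.32 ± 0.336), Lats2 (4.49 ± 0.478), Yap1 (3.70 ± 0.502), Tead1 (2.49 ± 0.298) and Tead2 (1.96 ± 0.350; n = 3 each). The control ranges of neighbours overlapped for Thbs1 and Ccn1, Ccn1 and Lats1, Ccn2 and Amotl2, Lats2 and Yap1, and Tead1 and Tead2. Within single control libraries Ccn2 was above Amotl2 and Lats2 above Yap1 in all 3, while the order of the other 3 pairs of neighbours differed between libraries. In NMDA libraries Ccn1 came first at 96.2 ± 30.9, and Lats2 (7.38 ± 1.99) passed Amotl2 (7.12 ± 1.45) in the order of the means by less than their spread. With the longest transcript in place of merged exons, Yap1 (6.48) stood above Lats2 (6.03).

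**Figure D3:**
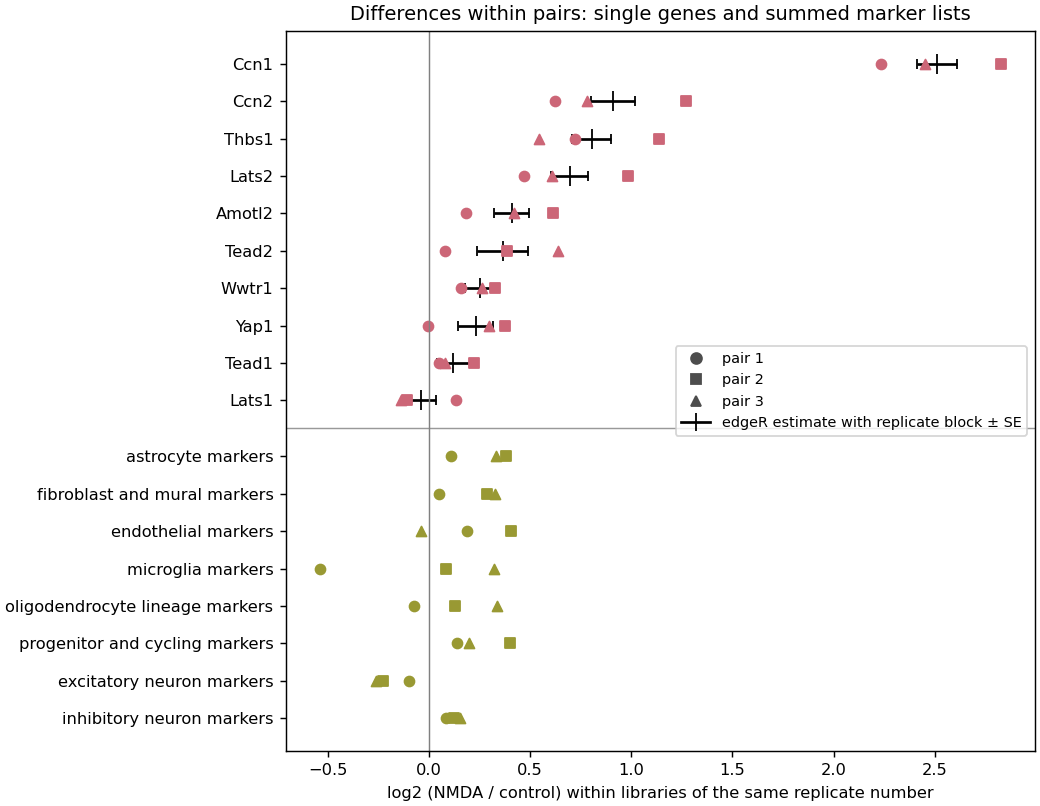
Log2 of NMDA over control within each pair of libraries of the same replicate number, for the 10 genes (red, with the edgeR estimate within pairs ± SE in black) and for the summed CPM of 8 lists of cell type markers (olive). Ccn1 lies between 2.23 and 2.83, apart from all others; the astrocyte markers lie between 0.11 and 0.38, the range in which the 3 points of Wwtr1 also lie.

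For the 10 genes the differences were not of the same size in the 3 pairs. These genes were chosen with their values known, so the counts describe them only. Of the 10 genes 8 were higher with NMDA in all 3 pairs, 8 had their largest difference in pair 2 and 8 their smallest in pair 1. Over all 14642 tested genes these shares were 22.5%, 32.0% and 37.6%. In pair 1 the differences of Yap1, Tead1, Tead2, Wwtr1 and Amotl2 were -0.0048, 0.05, 0.08, 0.16 and 0.18 on the log2 scale, while those of Lats2, Ccn2, Thbs1 and Ccn1 were 0.47, 0.62, 0.72 and 2.23. Ccn1, Ccn2, Thbs1 and Lats2 had the 4 largest differences in pairs 1 and 2; in pair 3 Tead2 (0.64) stood above Lats2 (0.61) and Thbs1 (0.55).

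Markers of some cell types, though not of all, also differed within pairs. Summed CPM of 10 astrocyte markers ranged from 2196 to 2864 in control and from 2368 to 3606 in NMDA libraries, and were higher with NMDA in each pair, by log2 0.11, 0.38 and 0.33. In edgeR none of the 10 passed without the block (2 at an unadjusted p under 0.05, 0 in DESeq2 and 0 in limma-voom). Within pairs 7 did, all higher, among them Aldoc (log2 0.26 within pairs) and Sox9 (0.31). Among all genes 5.65% were higher and 8.35% lower within pairs, shares that also stand beside the counts of the marker lists below. Wwtr1, at 0.16, 0.32 and 0.26, and Yap1, at -0.0048, 0.37 and 0.30, differed by amounts of that size. Ccn1, Ccn2, Thbs1, Lats2 and Amotl2 exceeded the astrocyte sum in every pair. Single astrocyte markers exceeded Amotl2, such as Sox9 in pair 1 (0.28), Aldh1l1 in pair 2 (0.66) and Fgfr3 in pair 3 (0.47). No astrocyte marker did so in every pair. Tagln, of the fibroblast and mural list below, did, at 0.50, 0.89 and 0.60. In bulk RNA a change in the number of cells of a type and a change in RNA per cell cannot be told apart. The part of these marker shifts in the differences above was not tested.

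Fibroblast and mural markers summed to 446 to 698 CPM in control and 559 to 721 CPM in NMDA libraries. Most of that is Pdgfra (273 to 552 CPM in controls), which oligodendrocyte precursors also express; the pericyte gene Rgs5 was at 0.867 to 1.27 CPM in controls. Of 12 listed, 10 were tested, of which 2 were higher within pairs and none lower: the smooth muscle actin gene Acta2 (log2 0.56) and Tagln (0.67), both of which serum response factor also drives. Of the 10 tested, 4 were higher in all 3 pairs and 2 lower. Those higher were Acta2, Tagln, Col1a2 (0.49 within pairs) and Pdgfrb (0.23), of which the last 2 did not pass. The fibroblast genes Dcn and Col1a1, at -0.18 and -0.21 within pairs, did not pass and were the 2 lower in all 3 pairs. Tagln measured 37.3, 59.4 and 44.3 CPM without and 52.8, 110 and 67.1 CPM with NMDA, with the high NMDA replicate 2 seen in Ccn2 and Thbs1. The part of such cells in the result was not tested.

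Endothelial markers summed to 12.3 to 18.0 CPM in control and 14.0 to 23.9 CPM in NMDA libraries, with the tight junction gene Cldn5 at 0 in all 6. Microglia markers were at 14.1 to 15.2 and 10.3 to 17.6 CPM. Progenitor and cycling markers summed to 824 to 1231 CPM in control and 908 to 1624 CPM in NMDA libraries, with 3 of 9 higher within pairs: Nes (log2 0.37), Vim (0.34) and Sox2 (0.22), which astrocytes can also express. The cycling genes Mki67, Top2a, Ccnb1 and Cdk1 (0.04 to 0.12) did not pass, and the median of the 9 without the block was 0.07. Markers of the labelled cell type were abundant. Those of excitatory neurons summed to 1218 to 1348 CPM in control and 1041 to 1238 CPM in NMDA libraries, with Camk2a lower (-0.39 within pairs) and Neurod2 higher (0.27). Without Camk2a the other 8 summed to 569 to 677 CPM without and 558 to 660 CPM with NMDA. Inhibitory neuron markers summed to 564 to 597 and 613 to 659 CPM, with 1 of 10 higher within pairs. Oligodendrocyte lineage markers summed to 532 CPM in control replicate 1 and 505 CPM in NMDA replicate 1 against 284 to 358 CPM in the other 4 libraries, both libraries of replicate 1 standing above the rest. Of these 9 markers 1 passed within pairs, Mog, which was lower (log2 -0.65, edgeR adjusted p = 0.040).

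**Figure D4:**
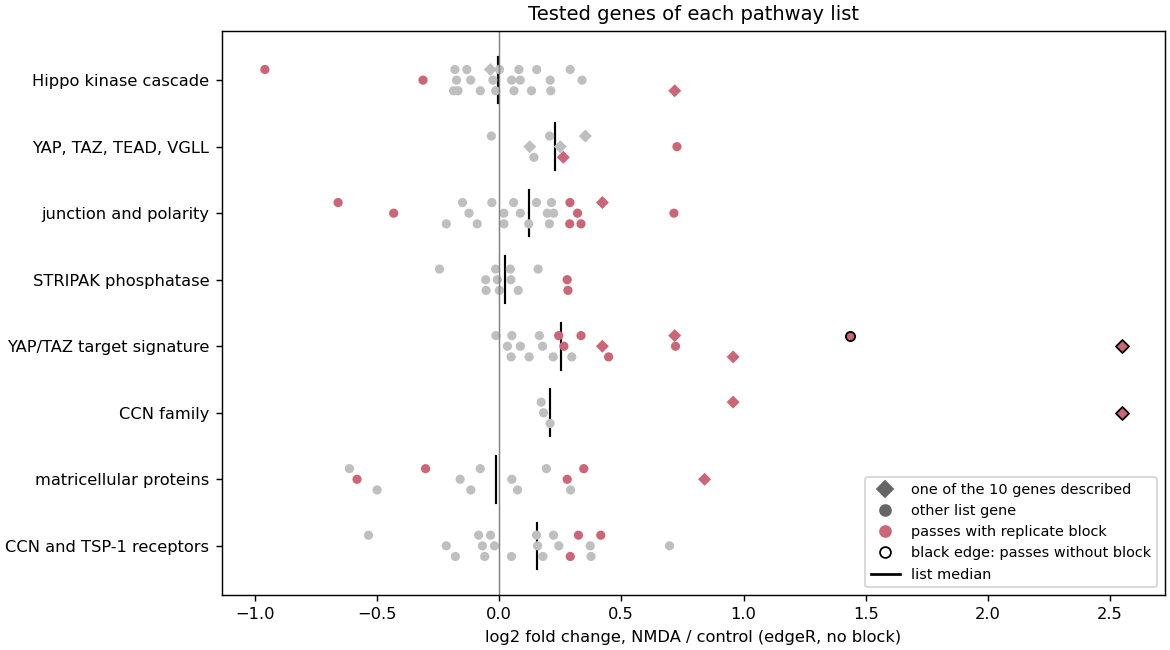
Log2 fold change of every tested gene of 8 lists of Hippo, CCN and matricellular genes, without the block. Diamonds are the 10 genes described, red marks pass within pairs, black edges pass without the block, and black bars are list medians; most marks of the YAP/TAZ target list lie right of 0 (median 0.25) and the kinase list is centred near 0 (median -0.01).

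The wider pathway was examined through lists drawn up from general knowledge, which hold 121 further genes beside the 10, of which 110 were tested. Without the block 1 of the 110 was higher and none lower (9 and 7 at an unadjusted edgeR p under 0.05), and within pairs 18 were higher and 6 lower, beside 5.65% higher and 8.35% lower among all genes. Their median log2 difference was 0.08, beside -0.01 over all tested genes. Without both libraries of replicate 2 the count within pairs was 3 higher and 5 lower, and calls among all tested genes also fell. The shares of 5.65% and 8.35% also stand beside the within-pair counts of the single lists below.

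A signature of 22 YAP/TAZ target genes, which holds Ccn1, Ccn2, Lats2 and Amotl2, had 20 genes tested. Of the 16 that are not among the 10 described, 1 was higher without the block, 6 were higher within pairs and none lower in either fit, with a median of 0.20. Nuak2, a stress-activated kinase, rose from a mean of 8.76 ± 0.601 CPM to 18.8, 29.6 and 22.6 CPM with NMDA. The groups were far apart, with a log2 change of 1.44 ± 0.17 (SE; edgeR adjusted p = 0.0056), and the call was lost without control replicate 2 (adjusted p = 0.051). Gadd45a, a growth arrest gene, measured 2.76 ± 0.171 CPM without and 4.56 ± 0.279 CPM with NMDA (SD, n = 3) and rose within pairs by log2 0.72 (edgeR adjusted p = 0.011), though not without both libraries of replicate 2 (adjusted p = 0.065). Fjx1, a regulator of the Fat and Dachsous cadherins, rose within pairs by 0.34 (edgeR adjusted p = 0.0095), which was also lost without replicate 2; it is in the junction list too. Ankrd1, a target gene of muscle and endothelium, had at most 5 counts in any library and was not tested.

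The kinase cascade was centred near 0. Of its 22 tested genes other than Lats1 and Lats2, none passed in edgeR without the block (2 lower at an unadjusted p under 0.05, 1 lower in DESeq2 and 0 in limma-voom) and 2 fell within pairs, a share near the 8.35% of all genes, with a median of -0.01. Map4k2, one of the kinases that act on LATS in parallel with the MST kinases, measured 39.6, 31.2 and 22.6 CPM without and 20.3, 16.8 and 11.2 CPM with NMDA. It fell in every pair, by 0.97, 0.89 and 1.01 on the log2 scale, and within pairs the estimate was -0.96 ± 0.09 (SE; edgeR adjusted p = 5.03e-07). Mink1, a related kinase, fell by 0.31 on the log2 scale within pairs (edgeR adjusted p = 0.0059) and lost the call without replicate 2. The core genes differed little: values without the block were 0.21 ± 0.13 for Stk3 and -0.08 ± 0.09 for Stk4, the MST kinases, -0.03 ± 0.09 for the scaffold Sav1 and 0.0015 ± 0.08 for Nf2, which recruits LATS to the membrane (SE), and none passed in either fit.

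Among the partners of YAP and TAZ, Vgll3 measured 5.63, 8.28 and 7.75 CPM without and 7.24, 17.7 and 10.8 CPM with NMDA. The groups overlapped through replicate 1, and the gene rose within pairs by log2 0.68 ± 0.14 (SE; edgeR adjusted p = 0.0037), though not without both libraries of replicate 2 (adjusted p = 0.155). Vgll4, which competes with YAP for TEAD factors, was at 0.21 ± 0.15, Tead3 at 0.14 ± 0.19 and Tead4, at under 1 CPM on average, at -0.03 ± 0.59 (SE), and none passed in either fit.

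Junction and polarity genes had 5 of 22 higher and 2 lower within pairs besides Amotl2. Without the block edgeR called none (2 higher and 2 lower at an unadjusted p under 0.05, 0 in DESeq2 and 0 in limma-voom). Those lower were Scrib (-0.42), a basolateral polarity scaffold, and Wtip (-0.63), a LIM domain protein of junctions, which lost its call without replicate 1. The other angiomotins did not pass in either fit, with log2 differences of 0.21 ± 0.15 for Amot and 0.15 ± 0.13 for Amotl1 (SE). Of 12 genes of the STRIPAK phosphatase complex, which acts on the MST kinases, 2 rose within pairs, the PP2A subunits Ppp2cb and Ppp2r1a (0.28 each), and both lost the call without replicate 2.

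Of the other thrombospondins, 1 was lower. Thbs3 measured 15.6 ± 3.66 CPM without and 10.4 ± 2.10 CPM with NMDA (SD, n = 3). All NMDA libraries lay below the controls, and the gene fell within pairs by 0.57 on the log2 scale (SE 0.11, edgeR adjusted p = 0.0020). Thbs2 had about 1 CPM and a difference of 0.19 ± 0.40 (SE), Thbs4 had at most 9 counts and was not tested. Of the 13 tested matricellular genes other than Thbs1, 2 rose and 2 fell within pairs, including Tnc (0.34), made by astrocytes and progenitors, and Tnr (-0.29), of oligodendrocytes and perineuronal nets. Tnc lost its call without replicate 2, and Tnr without replicate 1 or 3.

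Receptors for CCN proteins and thrombospondin-1 had 0 of 20 past the threshold without the block (edgeR; 1 higher and 1 lower at an unadjusted p under 0.05, 0 in DESeq2 and 0 in limma-voom). Within pairs 3 rose and none fell: the integrin subunits Itgav (0.33) and Itgb5 (0.39), which pair to form a receptor of CCN1, and the proteoglycan Sdc4 (0.27). Each lost its call without both libraries of replicate 2. Itgav measured 33.5, 35.9 and 44.8 CPM without and 44.1, 47.8 and 51.0 CPM with NMDA, so that the groups overlapped narrowly. The median of the 20 was 0.16.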

How the data were processed

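The deposited count table, made by the authors, gives raw reads per gene for each library, with Ensembl identifiers and symbols. Tools listed in the submitters' processing notes are HTSeq, TopHat and Trimmomatic; the builds listed there are GRCm38.p6 and mm10. Versions, the annotation release and whether counting used strand were not given in the sources used here. Totals ranged from 15417234 to 19183999 counts per library. Libraries of 1 group differed far beyond sampling noise (chi-square 8.17 to 59.0 per degree of freedom). A symbol was blank in 2153 rows, which have Ensembl identifiers and stayed in the tests.

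Counts were tested with edgeR 4.0.16 in R 4.3.3 (default filter with minimum count 10 and minimum total 15, TMM scaling, robust quasi-likelihood fit, group as its single term). P-values were adjusted by Benjamini-Hochberg over all tested genes, with a threshold of 0.05. CPM use TMM library sizes, and SE is the log2 fold change over the root of F. Libraries of the same replicate number deviated together from their group means (correlations across genes of 0.61, 0.47 and 0.55); what the numbers mark is not in the labels. The fit with the number as a block is therefore given where it changes a call. It has 2 residual degrees of freedom, against 4 without it. Exon lengths and positions came from GENCODE M21.

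Alternatives were DESeq2 1.42.0, limma-voom (limma 3.58.1), other scalings and filters, and libraries left out; leaving out both libraries of a replicate number was chosen after seeing the data. The fits were tested on simulated data. The 10 genes and all lists were chosen with earlier results of these data known. Named genes were the 10 and, from each pathway list, those that passed in either fit, at most 4 each by smallest p without the block. The 10 counted among the 4, and Fjx1 came through the junction list. A few core genes were fixed by name. The 3 nearest profiles of Ccn1, Ccn2, Thbs1 and Amotl2 were taken among genes whose log2 CPM averaged 1 or more. Of the cell type markers that passed, not all were named. Pdgfra, Pdgfrb, Rgs5, Cldn5, Dcn, Col1a1, Col1a2, Aldh1l1, Fgfr3, Mog and the cycling genes were named after their values were seen.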

Additional observations from a re-analysis of the deposited data

How the results depend on the processing

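Without the block edgeR called 55 genes higher and 8 lower, 1 of the 10 genes described and 1 of the 110 further pathway genes, both higher. With the replicate block these were 828, 1223 and 6, with 18 pathway genes higher and 6 lower. DESeq2 called 149 higher, 157 lower and 3 of the 10 (Ccn1, Ccn2 and Lats2), with 1 pathway gene higher and 1 lower. With the replicate block DESeq2 called 433, 530 and 6, with 10 pathway genes higher and 4 lower. With DESeq2 size factors in edgeR 5 genes were lower. With no low-count filter 130 were higher and 130 lower, and 0 of the 10 passed (adjusted p of Ccn1 0.070). Leaving out 1 library gave 19 to 89 higher, 0 to 57 lower, 0 to 3 of the 10 (3 without NMDA replicate 1, namely Ccn1, Ccn2 and Lats2) and 0 to 1 pathway gene. With the block and without both libraries of replicate 1, 2 or 3, 1341, 335 or 705 genes were higher and 1366, 683 or 758 lower, 8, 4 or 5 of the 10 were higher, and 29, 3 or 19 pathway genes were higher and 8, 5 or 5 lower. Of 170 values of the 10 genes under other settings, 3 turned sign, all of Lats1: leaving out 1 library moved its log2 difference from -0.11 to 0.015, with 0.010 without NMDA replicate 2, 0.015 without NMDA replicate 3 and 0.024 with the block and without both libraries of replicate 3. Per kb of the longest transcript, control levels were 6.48 for Yap1, 3.39 for Tead1, 2.77 for Tead2, 6.03 for Lats2 and 7.55 for Amotl2. The cause of these changes was not tested.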
